A study of Drosophila melanogaster with 12 samples.

Results

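The genes described here encode nuclear subunits of the mitochondrial respiratory chain and of the ATP synthase in Drosophila. They were taken from the count table by symbol, as every gene whose symbol starts with ND-, SdhA to SdhD, UQCR-, COX and a digit, or ATPsyn, with the genes of the mitochondrial DNA left out. The rule gave 80 of 17753 genes. Of these, 62 are single subunit genes, with 34 in complex I, 4 in complex II, 6 in complex III, 7 in complex IV and 11 in complex V. The other 18 are duplicate copies, whose symbols end in L or in L and a digit. They fall as 6, 2, 2, 4 and 4 over the same complexes. The rule leaves out subunit genes with other symbols, such as blw, sun, RFeSP, Cyt-c1, ox, levy and cype. Counts by complex, rankings and summed levels below therefore cover only genes under the rule.

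Complex I (NADH dehydrogenase) and complex II (succinate dehydrogenase) feed electrons from the tricarboxylic acid cycle into the chain, complex III (ubiquinol-cytochrome c reductase) passes them to cytochrome c, and complex IV (cytochrome c oxidase) passes them to oxygen. The proton gradient that complexes I, III and IV build drives complex V, the ATP synthase. Complex II is encoded in the nucleus alone, whereas the other complexes also hold subunits encoded by the mitochondrial DNA, so that their assembly draws on both genomes. In the fly, several subunits have a second gene copy, many of them known for expression in the testis.

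RNA was sequenced from cells of the larval wing imaginal disc, the sac of epithelium that forms the adult wing, hinge and notum. All larvae came from 30A>G-trace/SM5 virgin females crossed to w1118 males and carried the 30A-GAL4 driver, an insertion in an intron of dachsous (ds) that is active in the hinge, with the G-trace reporter (RFP for current and GFP for past driver activity). POS cells were RFP+GFP+, the hinge, and NEG cells were RFP-GFP-, the rest of the disc, which includes pouch and notum. The groups of 2 libraries each were POS and NEG cells without irradiation (-IR, collected 24 h after mock irradiation), at 24 h after X-rays (IR+24h) and at 48 h after X-rays (IR+48h). Discs of many larvae were pooled for each library, and no -IR group was collected at 48 h. The IR+48h larvae had been irradiated at 3 or 4 days after egg collection, so that age and time after irradiation cannot be told apart in the comparisons of IR+48h with -IR. According to the methods of the study, each replicate pooled discs from several crosses, dissociations and sorting runs, and replicates are described as independent samples. Nothing in the labels says which libraries shared a cross or a sort, and p-values measure the spread between these libraries.

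Total counts per library ranged from 4211088 (NEG -IR replicate 1) to 19940040, with a median of 14939250. Levels are given as CPM (the share of a library's counts, with the library size scaled by TMM factors), and log2 fold changes come from edgeR's quasi-likelihood fit over all 12 libraries, with p-values adjusted over the 10617 genes tested. A call is an adjusted p under 0.05. All 4 hinge markers (ds, Sox15, zfh2 and upd1) were called higher in POS without IR. Markers of muscle precursors, cells that lie under the notum, had a summed level of 63.3 to 232 CPM in the POS libraries and 475 to 1535 CPM in the NEG libraries. Hemocyte (blood cell) markers summed to 5.72 to 14.8 CPM in POS and 62.9 to 293 CPM in NEG. No marker of either list stayed under 3 counts in every library.

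Of the 80 genes, 68 passed the filter on low counts, which were 60 of the 62 subunit genes and 8 of the 18 copies. ND-MNLL had 0 counts in all libraries, and its exons lie wholly within those of CG45089 on the same strand, also at 0. ND-B8 had 0 to 3 counts per library. Among the other 60, only ND-AGGG was low, with 0.242 to 2.48 CPM, and the remaining 59 had means of at least 10 CPM.

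Per kb of annotated exon, a scale on which genes can be compared, subunit genes of complex V stood highest with a median of 178 CPM per kb, followed by complex IV with 117, complex III with 56.7, complex II with 50.7 and complex I with 41.95. The highest of the members was ATPsynC, which encodes the subunit of the membrane ring that turns as protons pass, at 751 CPM per kb. ATPsynbeta, the catalytic subunit, followed at 494 CPM per kb. The highest genes of the other complexes were COX7A (215 CPM per kb), UQCR-C1 (155), ND-MLRQ (109) and SdhA (74.5). In CPM, ATPsynC and ATPsynbeta together made up 34.8% to 41.1% of the summed level of the subunit genes in each library, and complex V made up 54.2% to 59.6%. Exon lengths join all annotated transcripts, so that a gene with a long alternative exon, such as ATPsyndelta at 36.4 CPM per kb, is set low on this scale.

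**Figure D1:**
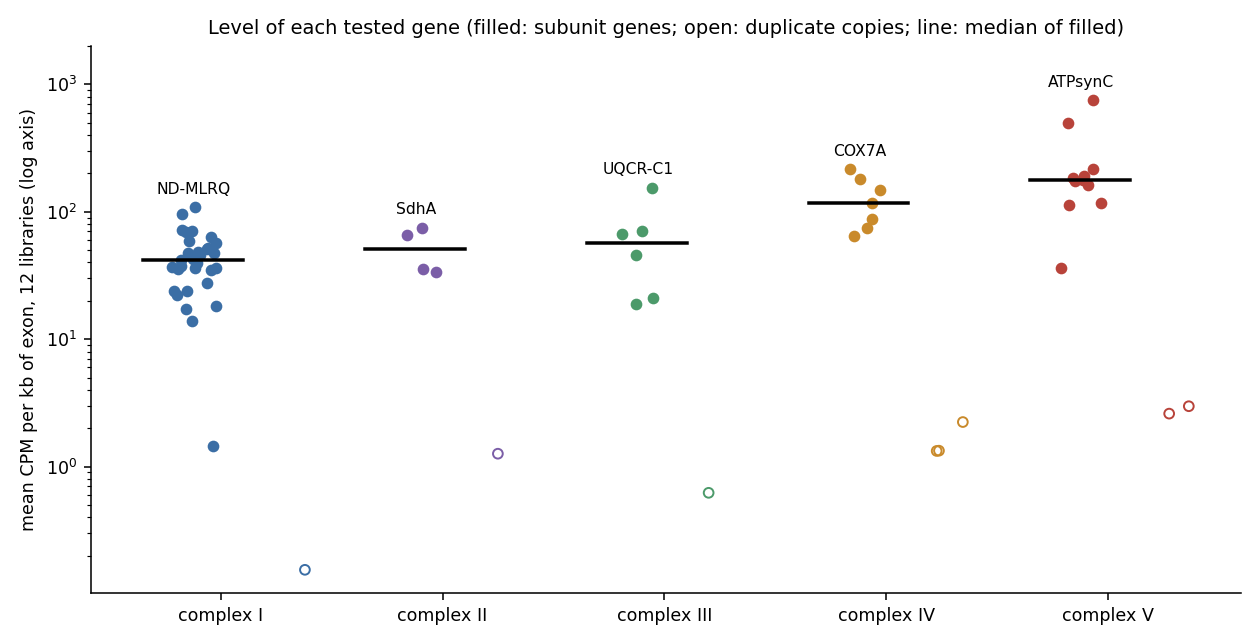
Mean level over 12 libraries, in CPM per kb of exon on a log axis, of each tested subunit gene (filled points, with a line at the median) and each tested duplicate copy (open points) by complex. Complex V has the highest median, at 178 CPM per kb, and the copies lie below 3 CPM per kb.

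One library stood apart in these genes. POS -IR replicate 2 had the lowest level of 55 of the 60 subunit genes, and all 60 were below their own mean over the 12 libraries there. The median deviation of the 60 genes from their means, less that of all tested genes, was -0.44 (log2) in this library and -0.13 in POS -IR replicate 1. It was 0.20 and 0.16 in the NEG -IR libraries and between -0.16 and 0.21 in the 8 irradiated libraries. Genes for mitochondrial ribosomal proteins were lowest in the same library, with a median deviation of -0.62 against -0.07 in POS -IR replicate 1. The summed hinge markers were at 6918 CPM in this library and at 4613 CPM in POS -IR replicate 1, but upd1 was lower (12.2 against 27.8 CPM). Summed pouch (610 against 391 CPM), notum (310 against 265 CPM) and muscle precursor markers (111 against 63.3 CPM) were also higher in replicate 2. So were differentiated muscle (46.3 against 19.3 CPM) and trachea markers (57.6 against 24.4 CPM). Hemocyte (9.62 against 14.8 CPM) and fat body markers (21.3 against 36.0 CPM) were lower. The counts and medians of the main comparisons with POS -IR are therefore also given without this library.

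**Figure D2:**
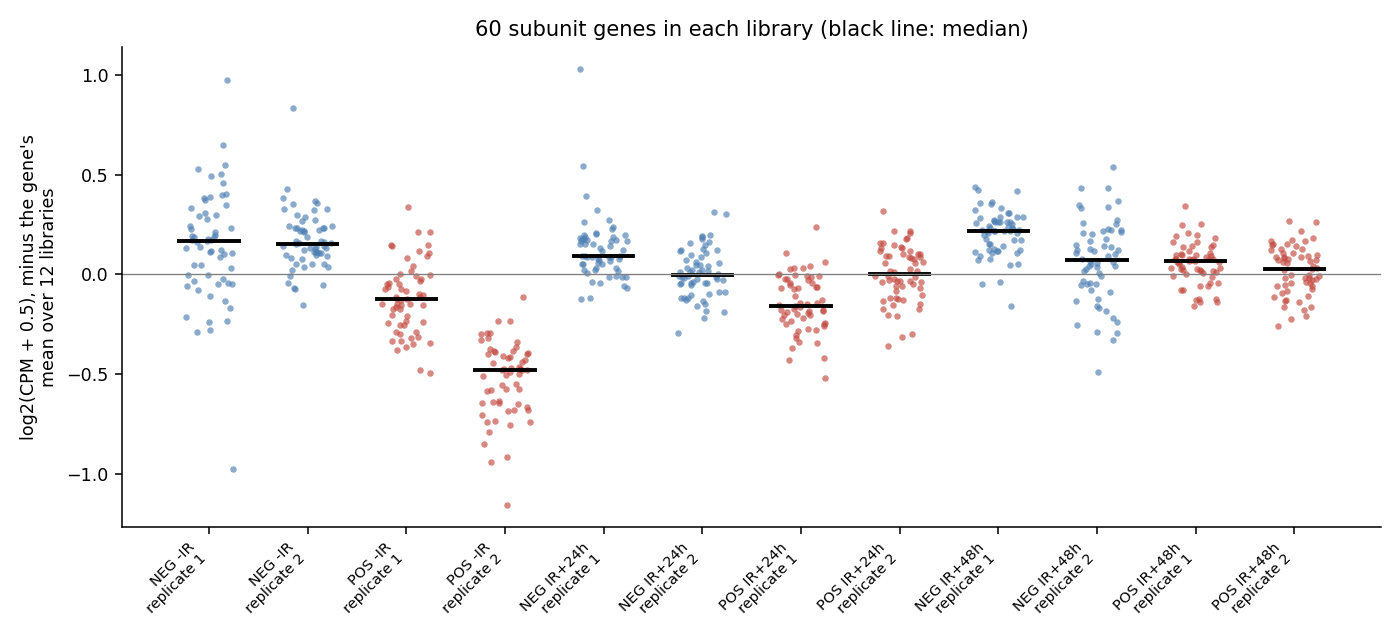
Each point is 1 of the 60 subunit genes in 1 library, as log2(CPM + 0.5) minus the gene's mean over the 12 libraries, in NEG (blue) and POS (red) libraries. Black lines are medians. POS -IR replicate 2 lies lowest, with all 60 genes below 0, and POS -IR replicate 1 has 48 of 60 below 0.

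Without irradiation, the subunit genes of the respiratory chain and ATP synthase lay at lower levels in hinge cells than in the rest of the disc, although few of them passed a test on their own. The log2 fold change of POS against NEG was below 0 for 60 of 60 subunit genes, with a median of -0.46, whereas 48.6% of all genes tested were below 0 and their median was 0.01. For 47 of the 60 (78.3%), both POS libraries were below both NEG libraries, against 17.1% of all genes. The summed level of the 62 genes was 7592 and 7973 CPM in the NEG libraries and 5836 and 5170 CPM in the POS libraries, which is 29.3% lower in POS by the group means and 25.02% lower with POS -IR replicate 1 alone. Only 3 members passed the test individually, all lower (4.41% of 68), where 2.67% of all genes were called and 1.76% were called lower. At an unadjusted p under 0.05 there were 36 of the 68 (52.9%), against 16.8% of all genes.

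The called genes were COX5A, ATPsynD and ATPsynO. COX5A encodes a nuclear subunit of cytochrome c oxidase (FBgn0019624, chromosome 3R, 11819359 to 11820299, plus strand, BDGP6.54). In the NEG libraries its level was 145.7 and 149 CPM, and in the POS libraries 92.6 and 59.8 CPM, so that the groups did not overlap. The log2 fold change was -0.95 (SE 0.20, edgeR adjusted p = 0.0282), the largest fall of the 3. ATPsynD encodes a subunit of the stalk that holds the catalytic head of the synthase in place (FBgn0016120, chromosome 3R, 19095000 to 19096271, plus strand). In NEG -IR it was at 230 and 215 CPM, and the POS -IR libraries were at 141 and 131 CPM, with a log2 fold change of -0.71 (SE 0.14, edgeR adjusted p = 0.0258). ATPsynO, which encodes the subunit that joins the stalk to the head (FBgn0016691, chromosome 3R, 15265591 to 15266690, plus strand), was at 175 and 174 CPM in NEG and 114.9 and 108 CPM in POS cells. Its log2 fold change was -0.65 (SE 0.15, edgeR adjusted p = 0.0496). In all 3 genes both POS libraries were below both NEG libraries.

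Same-numbered POS and NEG libraries deviated together without IR (correlation over genes 0.47), and only weakly at 24 h (0.11) and 48 h (0.16). A fit that pairs them within each time was added after these data were seen, and the labels do not state such pairs. It called 22 members lower without IR (32.4% of 68). In that fit 11.8% of all genes were called and 6.73% were called lower. The 22 comprised 9 of the 11 complex V genes, COX5A, COX5B, COX6B, SdhB, UQCR-C1, UQCR-C2 and 7 complex I genes. Without POS -IR replicate 2, 0 of the members passed in edgeR's test, 52 of the 60 subunit genes were still below 0 and their median was -0.32. Without NEG -IR replicate 2 the count was 1, and without POS -IR replicate 1 it was 9. Scaled by library size alone, which moves the median of all genes to 0.12, 0 passed, and 57 of 60 were below 0 with a median of -0.35.

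**Figure D3:**
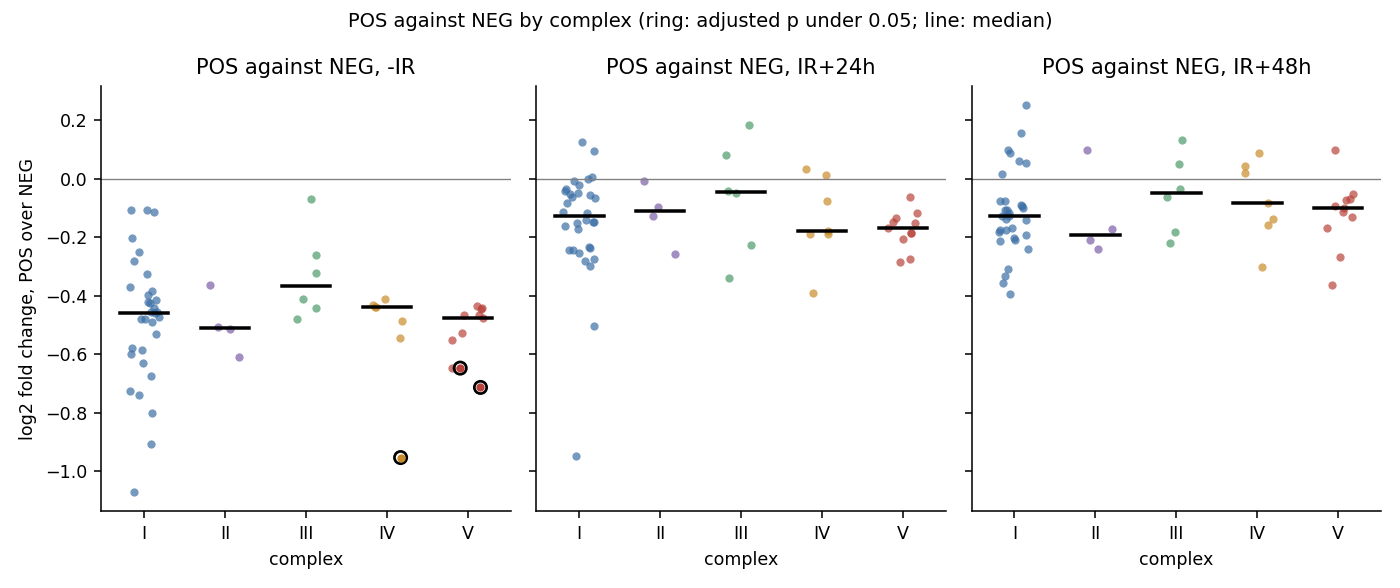
Log2 fold change of POS over NEG for the 60 tested subunit genes, by complex, without IR and at 24 and 48 h. Lines are medians and rings mark adjusted p under 0.05. Without IR all 60 points lie below 0, at IR+24h 53 and at IR+48h 46.

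Without IR all 5 complexes lay on the same side. The median log2 fold change was -0.46 in complex I, -0.51 in complex II, -0.37 in complex III, -0.44 in complex IV and -0.48 in complex V. In complex V, all 11 genes were lower in every pair of libraries and all 11 had an unadjusted p under 0.05. The groups were also apart for 7 of 7 genes of complex IV and 4 of 4 of complex II, but only for 22 of 32 of complex I and 3 of 6 of complex III. ATPsynbeta was at 1325 and 1429 CPM in NEG and 1046 and 949.8 CPM in POS cells (log2 fold change -0.46, SE 0.13, edgeR adjusted p = 0.0866). UQCR-C1, a core subunit of complex III, was at 276 and 280 CPM in NEG and 210 and 199.6 CPM in POS cells (-0.44, SE 0.13, edgeR adjusted p = 0.101). Neither passed the threshold. With POS -IR replicate 2 left out, the medians were -0.28, -0.32, -0.15, -0.38 and -0.39 in complexes I to V, and all 11 genes of complex V, 7 of complex IV and 4 of complex II were still below 0, with 26 of 32 of complex I and 4 of 6 of complex III.

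In complex II, SdhA encodes the flavoprotein that oxidises succinate, SdhB the iron-sulfur subunit, and SdhC and SdhD the membrane anchors. SdhA was at 241 and 206 CPM in NEG and 193 and 155 CPM in POS cells (log2 fold change -0.36, SE 0.16). SdhB was at 84.0 and 84.8 CPM in NEG and 56.6 and 54.0 CPM in POS cells (-0.61, SE 0.15, edgeR adjusted p = 0.0612). SdhC was at 35.6 and 33.5 CPM in NEG and 28.2 and 20.5 CPM in POS cells (-0.51, SE 0.26). SdhD was at 41.4 and 31.2 CPM in NEG and 28.2 and 22.4 CPM in POS cells (-0.51, SE 0.23). No POS library of any of the 4 reached a NEG library, and none of the 4 passed the threshold.

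The genes farthest from the median of the 60 were ND-13A, COX5A and ND-B17. ND-13A, a complex I subunit gene, was at 26.4 and 22.5 CPM in NEG and 16.1 and 7.20 CPM in POS cells (log2 fold change -1.07, SE 0.35, edgeR adjusted p = 0.138). ND-B17, another complex I subunit gene, was at 69.0 and 40.7 CPM in NEG and 31.4 and 26.6 CPM in POS cells (-0.91, SE 0.25, edgeR adjusted p = 0.0881). Both differ widely between the libraries of a group. By chromosome arm, the medians ranged from -0.51 (3R, 13 genes) to -0.42 (3L, 12 genes).

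Genes of several other lists lay on the same side, within and outside the pathway. All 8 tested genes of a list of further subunits and electron carriers were lower in POS -IR (median -0.55) and 2 passed, Cyt-c1 of complex III (-0.72, SE 0.17, edgeR adjusted p = 0.0443) and levy, the fly gene for subunit 6A of complex IV (-0.63, SE 0.14, edgeR adjusted p = 0.0407). All 13 genes of the tricarboxylic acid cycle were lower (median -0.47), with Mdh2, the mitochondrial malate dehydrogenase (-0.78, SE 0.15, edgeR adjusted p = 0.0231), and l(1)G0156, a subunit gene of isocitrate dehydrogenase (-0.72, SE 0.16, edgeR adjusted p = 0.0383), past the threshold. Of 13 genes that regulate mitochondrial content or its genome, 11 were lower (median -0.38) and 3 passed. One was TFAM, which packages mitochondrial DNA (-1.08, SE 0.23, edgeR adjusted p = 0.0324). The others were Myc (-0.70, SE 0.16, edgeR adjusted p = 0.0458) and bsf, which binds mitochondrial mRNA (-0.61, SE 0.13, edgeR adjusted p = 0.0315). None of these 7 genes passed in edgeR without POS -IR replicate 2, with adjusted p from 0.0541 for Myc to 0.180 for Cyt-c1, and all 13 tricarboxylic acid cycle genes were still lower, with a median of -0.50. Of the regulators 9 of 13 were lower there (median -0.43), and of the further subunits 7 of 9 (median -0.45).

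The lower level was not limited to genes of respiration. Genes for cytoplasmic ribosomal proteins were lower in 82 of 86 cases (median -0.45, 3 called lower), those for mitochondrial ribosomal proteins in 64 of 72 (median -0.43, 0 called lower) and those for mitochondrial transport in 13 of 15 (median -0.47, 2 called lower). With POS -IR replicate 2 left out these were 80 of 88 (median -0.28), 46 of 72 (median -0.20) and 12 of 15 (median -0.40), with 0 called lower. Whether the subunit genes differed from these lists was not tested. Glycolysis genes split evenly, with 6 of 12 lower and a median of -0.05 (7 of 12 and -0.04 without that library). In sorted bulk RNA, fewer cells with a high level and less RNA per cell cannot be told apart. All 5 muscle precursor markers were lower in POS -IR, with a median log2 fold change of -5.11, and 5 of 6 hemocyte markers were lower, with a median of -4.29. The part of these cells in the level of NEG was not tested.

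After irradiation the median difference between POS and NEG cells lay nearer 0. At IR+24h, 53 of the 60 subunit genes were below 0 with a median of -0.14, and at IR+48h 46 were, with a median of -0.12, where 52.3% and 49.3% of all genes were below 0. These values moved with single libraries. At IR+24h, 38 were below 0 with a median of -0.05 without POS IR+24h replicate 1, and 40 with a median of -0.07 without NEG IR+24h replicate 1. At IR+48h, 32 were below 0 with a median of -0.03 without NEG IR+48h replicate 1, and 54 with a median of -0.20 without NEG IR+48h replicate 2. The summed level was 8.74% lower in POS at IR+24h (6058 and 6743 CPM against 7141 and 6886 CPM in NEG) and 10.3% lower at IR+48h (6911 and 6991 CPM against 7840 and 7660 CPM). In edgeR, limma voom and DESeq2 alike, 0 of the 68 members passed at either time, with an unadjusted p under 0.05 in edgeR for 1 and 2 members, against 7.62% and 6.25% of all genes. Of all genes, 0.509% were called at IR+24h and 0.33% at IR+48h. With libraries paired within each time the counts stayed at 0 where 3.68% and 2.54% of all genes were called. In 19 of the 60 genes at IR+24h and 24 at IR+48h, both POS libraries were below both NEG libraries, against 24.8% and 21.0% of all genes.

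Averaged over the 3 times, POS was below NEG for 59 of 60 subunit genes, with a median of -0.23 against 0.00 for all genes, of which 49.6% were below 0. Without POS -IR replicate 2 it was below for 56 of 60, with a median of -0.18. The test of this mean called 5 members, all lower (7.35% of 68), and 7.9% of all genes were called, 4.46% lower, so that the share of members called was near that of all genes. For 37 of the 60 (61.7%) the difference was negative in every set of single libraries, against 14.9% of all genes. With the libraries paired within each time, 20 members passed (29.4%), all lower, where 18.7% of all genes were called and 9.98% were called lower. Leaving out 1 library at a time gave 0 to 17 calls. There were 0 calls without POS IR+24h replicate 1 and without POS IR+48h replicate 2, and 1 call without NEG IR+24h replicate 1 or 2, POS IR+24h replicate 2, NEG IR+48h replicate 2 or POS IR+48h replicate 1. There were 2 calls without POS -IR replicate 2 or NEG IR+48h replicate 1, 3 without NEG -IR replicate 1 or 2, and 17 without POS -IR replicate 1.

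COX5A had the largest fall of the 5 by this mean (-0.55, SE 0.11, edgeR adjusted p = 0.0121). It was at 130.4 and 128 CPM in NEG and 90.7 and 106 CPM in POS at IR+24h, and at 134 and 156.02 CPM in NEG and 122 and 114 CPM in POS at IR+48h. The POS libraries stayed below the NEG libraries at each time. ATPsynF, a subunit gene of the membrane part of the synthase, was at 150.3 and 145.5 CPM in NEG -IR against 125 and 92.2 CPM in POS -IR, at 143 and 133 CPM against 106 and 121 CPM at IR+24h, and at 154 and 169 CPM against 126 and 126 CPM at IR+48h (-0.36, SE 0.10, edgeR adjusted p = 0.0397). ATPsynC was at 1425 and 1733 CPM against 982 and 1174 CPM without IR, at 1340.4 and 1422 CPM against 1164 and 1269 CPM at IR+24h, and at 1587 and 1863 CPM against 1398 and 1466 CPM at IR+48h (-0.33, SE 0.09, edgeR adjusted p = 0.0400). For both genes the POS libraries were below the NEG libraries at every time. ATPsynD was at 181 and 184 CPM in NEG against 146 and 175 CPM in POS at IR+24h, and at 207 and 185 CPM against 187 and 181 CPM at IR+48h, where the groups overlapped (-0.33, SE 0.08, edgeR adjusted p = 0.0322). SdhB was at 82.0 and 86.3 CPM in NEG against 70.6 and 86.9 CPM in POS at IR+24h, which overlap, and at 93.8 and 100.8 CPM against 82.1 and 82.6 CPM at IR+48h (-0.32, SE 0.09, edgeR adjusted p = 0.0498). Its exons overlap those of a gene on the other strand over 10.6% of their length, and whether reads were counted by strand is not given in the sources used here.

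**Figure D4:**
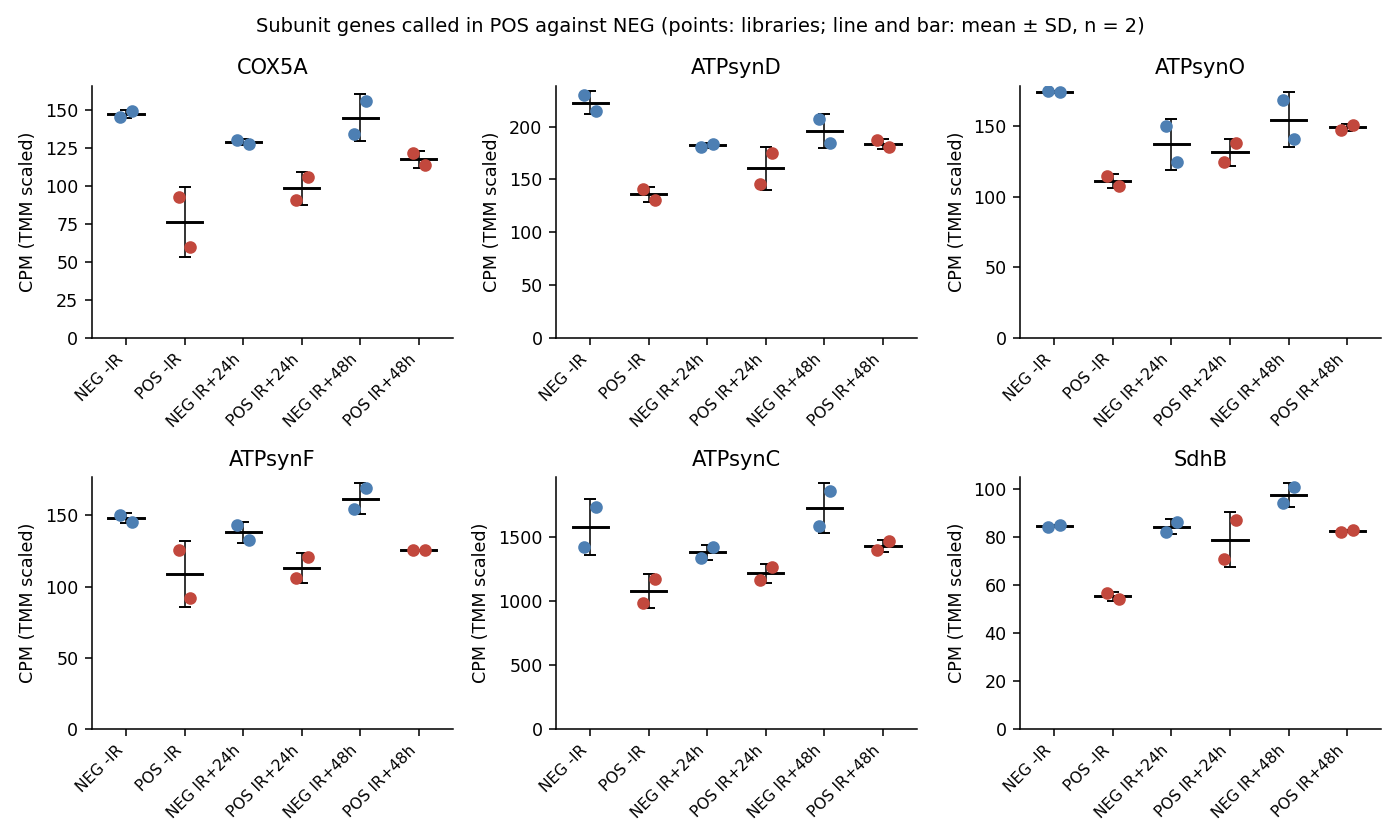
CPM (TMM scaled, axis from 0) in each library of the 6 subunit genes called in POS against NEG without IR or in the mean of 3 times. Points are libraries (NEG blue, POS red), and the line and bar are the mean ± SD of 2 libraries. COX5A in POS -IR spans 59.8 to 92.6 CPM, below both NEG -IR libraries at 145.7 and 149 CPM.

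The 13 genes of the mitochondrial DNA, which encode partner subunits of complexes I, III, IV and V, had a median log2 fold change of POS over NEG of -0.40 before irradiation, then -0.44 (IR+24h) and -0.50 (IR+48h). They were 12, 13 and 10 of 13 below 0, and edgeR called 0 of them at each time with 4, 7 and 8 at an unadjusted p under 0.05. In the mean of the 3 times all 13 were below 0 and 7 passed (median -0.47), among them mt:CoI and mt:CoII of complex IV and mt:ATPase6 of complex V. All 7 also passed without POS -IR replicate 2, and the median of the 13 before irradiation was then -0.40. With each library left out in turn, mt:CoI passed in all 12 cases and the other 6 in 7 to 9. The medians of the nuclear subunit genes over the same times were -0.46, -0.14 and -0.12. Whether nuclear and mitochondrial genes differed in this was not tested. The mitochondrial values also moved with single libraries. The median log2 deviation of the 13 genes from their own means, less that of all tested genes, differed within groups. At IR+24h it was -0.65 and -0.19 in POS and 0.03 and 0.07 in NEG. At IR+48h it was -0.38 and -0.01 in POS and 0.15 and 0.36 in NEG. Libraries were made from poly-A RNA, and mitochondrial genes took 3.65% to 6.65% of the counts of a library.

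Irradiation was compared with -IR within POS and within NEG cells, to see how the levels moved over time. These comparisons and those above share the -IR libraries. In POS cells, 58 of 60 subunit genes were above 0 at IR+24h, with a median of 0.22, and 59 of 60 at IR+48h, with a median of 0.36, where 47% and 45.7% of all genes were above 0. In edgeR 0 of the 68 members passed at either time, although 10 and 21 (14.7% and 30.9%) had an unadjusted p under 0.05, against 18.3% and 14.5% of all genes. Of all genes, 5.33% were called at IR+24h and 1.63% at IR+48h. Limma voom called 1 member at IR+24h (ND-49, where it called 6.45% of all genes) and 0 at IR+48h. DESeq2 called 4 (COX7AL, ND-49, SdhB and UQCR-C2) and 3 (ND-49, SdhB and UQCR-C2), where it called 9.45% and 5.22% of all genes. By complex, the medians at IR+48h were 0.31 in I, 0.36 in II, 0.44 in III, 0.51 in IV and 0.36 in V.

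Values of 3 subunit genes with a low p in POS were as follows. ND-49, a core subunit gene of complex I, was at 77.9 and 62.2 CPM in POS -IR, at 98.2 and 109 CPM at IR+24h and at 105 and 102 CPM at IR+48h (log2 fold change 0.57, SE 0.16, edgeR adjusted p = 0.0638 at IR+24h). UQCR-C2, a core subunit gene of complex III, was at 91.8 and 74.5 CPM in POS -IR, at 115.5 and 125 CPM at IR+24h and at 128 and 112.0 CPM at IR+48h (0.53, SE 0.15, edgeR adjusted p = 0.0708 at IR+24h). SdhB, with the POS levels given above, had a log2 fold change of 0.58 (SE 0.15, edgeR adjusted p = 0.0873) at IR+48h. Both irradiated groups lay above the POS -IR libraries in these 3 genes, and none passed in edgeR. They were chosen after their values were seen.

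Much of this difference rests on POS -IR replicate 2. Without it, 36 of 60 subunit genes were above 0 at IR+24h in POS with a median of 0.03, and 45 of 60 at IR+48h with a median of 0.17, and 0 members passed. The medians by complex at IR+48h were then 0.07 in I, 0.19 in II, 0.18 in III, 0.35 in IV and 0.19 in V. Without POS -IR replicate 1, 60 of 60 were above 0 at both times, the medians were 0.45 and 0.53, and edgeR called 5 and 1 members. The muscle precursor markers summed to 63.3 and 111 CPM in POS -IR, 152 and 145 CPM in POS IR+24h, and 218 and 232 CPM in POS IR+48h. In NEG -IR they summed to 553 and 1535 CPM. Over the same POS groups, notum markers summed to 265 and 310, 166 and 132, and 148 and 154 CPM. Hinge markers summed to 4613 and 6918, 4443 and 3650, and 4475 and 4481 CPM. Differentiated muscle markers summed to 19.3 and 46.3, 101 and 104, and 77.2 and 53.4 CPM. The part of these cell types in the levels of the subunit genes was not tested.

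In NEG cells the median lay a little below 0 at IR+24h and near 0 at IR+48h. The summed level of the subunit genes in NEG was 7592 and 7973 CPM without IR. It was 7141 and 6886 CPM at IR+24h, below both -IR libraries, and 7840 and 7660 CPM at IR+48h. At IR+24h 17 of 60 were above 0 with a median of -0.08, and at IR+48h 29 of 60 with a median of 0.00, where 49.1% and 48.2% of all genes were above 0. edgeR called 0 members at both times, with 6 and 4 at an unadjusted p under 0.05 (13% and 10.5% of all genes), where 2.16% and 0.113% of all genes were called. The median at IR+24h was -0.14 without NEG IR+24h replicate 1 and -0.03 without NEG IR+24h replicate 2. DESeq2 called 1 (COX7AL, where it called 4.78% of all genes) and 0, and limma voom called 0 and 0. Of the 60 subunit genes, the one farthest from their median at both times was ND-B17, whose level was 69.0 and 40.7 CPM in NEG -IR and between 30.6 and 39.4 CPM in the 4 irradiated NEG libraries, with an adjusted p of 0.330 at IR+24h and 0.418 at IR+48h in edgeR.

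The change in POS minus the change in NEG was above 0 for 55 of 60 subunit genes at IR+24h and 58 of 60 at IR+48h, with medians of 0.35 at both times, where 49.2% and 50% of all genes were above 0. In edgeR, limma voom and DESeq2 0 members passed this test at either time, with 6 and 7 at an unadjusted p under 0.05 in edgeR, against 3.32% and 3.3% of all genes. Among all genes 0% were called at IR+24h and 0.0188% at IR+48h. Without POS -IR replicate 2, 46 and 48 of the 60 were above 0, with medians of 0.20 and 0.22, and without POS -IR replicate 1 the median at IR+48h was 0.60. A difference between POS and NEG cells in their response was not detected for any of the 68 genes.

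Over POS and NEG together, the subunit genes had a median of 0.08 at IR+24h (41 of 60 above 0) and 0.16 at IR+48h (53 of 60 above 0), where 47.4% and 46.3% of all genes were above 0. Without POS -IR replicate 2 the medians were -0.03 and 0.08, with 23 and 42 above 0. Only COX7AL, a copy, passed at IR+24h (1.47% of 68 members, where 9.98% of all genes were called). At IR+48h 0 members passed in edgeR, with 14 (20.6%) at an unadjusted p under 0.05, against 19.7% of all genes, where 4.37% of all genes were called. DESeq2 called 2 and 4 members (15% and 9.18% of all genes), and limma voom 1 and 0 (9.67% of all genes at IR+24h). No subunit gene passed in edgeR at either time. With POS -IR replicate 1 left out, the medians were 0.18 and 0.28 and 5 members passed at each time, and without NEG -IR replicate 2, 1 passed at IR+48h.

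Cytochrome c, the carrier between complexes III and IV, was called after irradiation. Cyt-c-p, the main somatic cytochrome c gene, which is outside the prefix rule, was at 74.0 and 76.3 CPM in NEG -IR, 92.8 and 110.4 CPM in NEG IR+24h and 121 and 117 CPM in NEG IR+48h. It was at 53.9 and 46.0 CPM in POS -IR, 88.8 and 129 CPM in POS IR+24h and 127 and 95.9 CPM in POS IR+48h. All 8 irradiated libraries were above all 4 libraries without IR. Over both cell types it rose by 0.78 (log2, SE 0.15, edgeR adjusted p = 0.00573) at IR+24h and by 0.91 (SE 0.15, edgeR adjusted p = 0.00765) at IR+48h. It passed with each of the 8 libraries involved left out in turn, at both times. In POS cells Cyt-c1 also passed at IR+24h (0.71, SE 0.17, edgeR adjusted p = 0.0316), as did RFeSP, the Rieske subunit gene of complex III, at IR+48h over both cell types (0.47, SE 0.12, edgeR adjusted p = 0.0425). Of the tricarboxylic acid cycle, Nc73EF, a subunit gene of 2-oxoglutarate dehydrogenase, rose over both cell types by 0.59 (SE 0.12, edgeR adjusted p = 0.00796) at IR+24h and by 0.51 (SE 0.12, edgeR adjusted p = 0.0318) at IR+48h. Without POS -IR replicate 2 the adjusted p in edgeR was 0.126 for Cyt-c1, 0.0833 for RFeSP, and 0.00340 and 0.0147 for Nc73EF. Nc73EF passed in 7 of 8 cases with 1 library left out at IR+24h, the exception having an adjusted p of 0.0509, and in 2 of 8 at IR+48h.

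The duplicate copies were all low, below 10 CPM in the mean of every group. Of 18, 10 were not tested, with at most 15 counts in any library, and UQCR-14L had 0 counts in all. Over the 8 tested, the median log2 fold change of POS against NEG without IR was 0.60, with 5 above 0 and 0 called, none of them at an unadjusted p under 0.05. With POS -IR replicate 2 left out, 9 copies passed the filter, with a median of -0.06 and 3 above 0. Limma voom and DESeq2 also called 0 copies there. Only 6 copies had a mean of at least 1 CPM in any group. ATPsynbetaL, a copy of the catalytic subunit gene, was at 5.08 and 6.61 CPM in NEG and 4.33 and 15.1 CPM in POS cells without IR, and ranged from 2.35 to 7.65 CPM in the irradiated libraries. SdhBL ranged from 0.415 to 3.97 CPM, ATPsynepsilonL from 0.310 to 2.70 CPM, COX4L from 0 to 2.98 CPM and COX5BL from 0 to 2.36 CPM. For these 5 copies libraries of 1 group often differed more than groups did, as in COX4L at 1.65 and 0 CPM in POS IR+48h. The exons of COX5BL lie wholly within those of Trmt6 on the other strand.

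COX7AL was the 1 copy called in edgeR's fit over all 12 libraries. With POS -IR replicate 1 left out, ATPsynbetaL was also called, in POS against NEG over the 3 times and in IR+24h against -IR over both cell types. COX7AL resembles COX7A, a subunit gene of complex IV, and lies on chromosome 3R from 8343669 to 8344310 on the plus strand (FBgn0037579, BDGP6.54). Its counts were 0 and 1 in NEG -IR and 5 and 2 in POS -IR. At IR+24h they were 33 and 25 in NEG and 41 and 51 in POS, and at IR+48h 12 and 20 in NEG and 42 and 6 in POS. As levels, these were 0 and 0.07 CPM, 0.41 and 0.12 CPM, 2.64 and 1.73 CPM, 3.04 and 3.31 CPM, 0.65 and 1.35 CPM, and 2.04 and 0.38 CPM. All 4 IR+24h libraries were above all 4 libraries without IR, whereas POS IR+48h replicate 2 was at 0.38 CPM, below POS -IR replicate 1.

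Over both cell types COX7AL rose at IR+24h, with a log2 fold change of 4.36 (SE 0.82, edgeR adjusted p = 0.00604) and the same sign in 16 of 16 sets of single libraries. It passed with each of the 8 libraries left out in turn, with log2 fold changes of 4.02 to 5.77, and with limma voom and DESeq2. COX7AL passed the filter on low counts only through irradiated libraries, since it was at 0 to 0.41 CPM in the 4 libraries without IR. The test at IR+24h and its repeats under other settings are therefore not independent of the filter. COX7AL was not tested under the filter of 1 CPM in all libraries, and with 1 count in NEG -IR the fitted value depends on the prior count. In POS, the ratio of summed counts to POS -IR was 12.9 (95% exact counting interval 6.02 to 32.98). In NEG it was 38.5 with an interval of 6.64 to 1547, since the NEG -IR group held 1 count. These intervals cover counting error only. Within POS and within NEG the adjusted p was 0.0637 and 0.0806 in edgeR. At IR+48h the log2 fold change over both cell types was 3.11 (SE 0.83, edgeR adjusted p = 0.0577), and the count ratio in POS was 5.36 (2.41 to 14.1). The POS change was not distinguished from the NEG change (difference at IR+24h -1.56, SE 1.68).

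COX7A, the single gene, was at 138 and 175 CPM in NEG -IR, at 119 and 117 CPM in POS -IR and at 139 to 173 CPM in the irradiated libraries. Its log2 fold change at IR+24h over both cell types was 0.13 (SE 0.11).

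**Figure D5:**
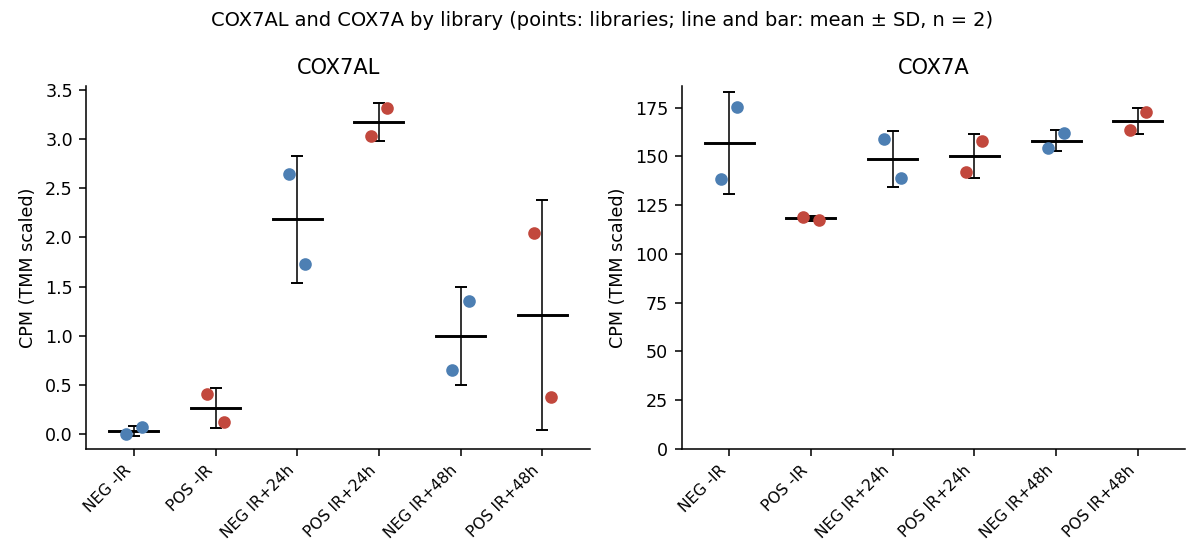
CPM (TMM scaled) of COX7AL, left, and COX7A, right, in each library (NEG blue, POS red), with the mean ± SD of 2 libraries. COX7AL lies at 1.73 to 3.31 CPM in the 4 IR+24h libraries and at 0 to 0.41 CPM in the 4 libraries without IR, while COX7A lies between 117 and 175 CPM throughout.

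Some subunit genes share exon sequence with a neighbour, and 14 of the 62 do so over more than 10% of their exon length. UQCR-14 lies wholly within exons of CG32576 on the opposite strand, and UQCR-6.4, ATPsyndelta and ND-B22 share 40.5%, 35.6% and 26.1%. Reads of such pairs cannot be told apart unless strand was used in counting. Of the genes called, COX5A, ATPsynD, ATPsynO, ATPsynF, ATPsynC and COX7AL share less than 10% with any gene.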

How the data were processed

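Wing disc cells were sorted into POS and NEG pools at 3 conditions, and 12 libraries of poly-A RNA were analysed, 2 for each of 6 groups. According to the methods of the study and its processing notes, the authors trimmed reads with BBDuk, aligned and counted them with STAR 2.6.0a against the Ensembl BDGP6.22 annotation, and deposited the raw counts of each gene, which are not normalized. Whether counting used strand is not given in the sources used here. The table also holds 1 column that matches no sample, which was not used, and 0 rows of the ERCC spike-ins.

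Members were found by symbol, and all 80 matched the BDGP6.54 annotation, from which identifiers, positions, exon lengths and overlaps were taken. The members and the gene lists were chosen with earlier results of these data known. No sequence is shown.

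Counts were fitted with edgeR 4.0.16 in R 4.3.3 (filterByExpr, TMM, quasi-likelihood F tests on 6 group means over all 12 libraries), with Benjamini-Hochberg adjustment over 10617 genes. All tests were two-sided. The common biological coefficient of variation was 0.303. A count of 3, taken as the floor, is 0.150 CPM in the deepest and 0.712 CPM in the shallowest library. Count ratios of COX7AL have exact 95% intervals from scipy 1.17.1. Tables were made with Python 3.11.15 (numpy 2.4.6, pandas 2.3.3) and figures with matplotlib 3.10.9.

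Named genes are called members with the same sign in every set of single libraries, the highest member per length of each complex, all of complex II, copies with at least 1 CPM in a group, the members farthest from the median, and called genes of the lists. The text leaves out some genes that meet this. Genes picked for their values are said to be so.

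As alternatives, DESeq2 1.42.0, limma voom 3.58.1, scaling by library size alone, no filter, a minimum of 1 CPM in all libraries, a fit of only the groups compared, a block for the replicate number, and leaving out each library were run. A block that pairs POS and NEG libraries of the same number within each time was added after the data were seen. Deviations of such pairs from their group means correlated over genes at 0.47 without IR, 0.11 at 24 h and 0.16 at 48 h, each above 0.1, whereas same-numbered libraries of -IR and IR+24h correlated at -0.22 in POS and -0.14 in NEG. The pairing comes from the data and the numbers in the labels. The fit was tested on simulated data with known changes of 2-fold and 4-fold. For POS against NEG without IR it recovered 29% and 72% of them, and 3.81% of its calls were false. For the mean of 3 times it recovered 71% and 93%, and 8.89% of its calls were false. Smaller changes were not simulated, so that a lack of calls does not show a lack of change.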

Additional observations from a re-analysis of the deposited data

How the results depend on the processing

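Directions of the subunit genes were kept under every scaling and tool for POS against NEG without IR, where 57 to 60 of 60 lay below 0, but counts of called members depended on the setting, and the cause was not tested. For POS against NEG without IR, 3 members were called (2.67% of all genes), and 22 with libraries paired within each time (11.8% of all genes). The count was 11 with DESeq2, 0 with library size alone and 3 with the replicate block. It was 0 with only the groups compared, where 20 of all genes were called. For the mean of 3 times, 5 were called (7.9% of all genes), and 20 with libraries paired within each time (18.7% of all genes). The count was 3 with 1 CPM in all libraries, where 635 of all genes were called. It was 1 with library size alone, 1 without a filter and 4 with the replicate block. For IR+24h in POS, 0 were called (5.33% of all genes), against 1 with limma voom (6.45%), 4 with DESeq2 (9.45%) and 1 without a filter. For IR+24h in NEG, 0 were called (2.16% of all genes), against 1 with DESeq2 (4.78%) and 1 without a filter (616 of all genes). For IR+48h in POS, 0 were called (1.63% of all genes), against 3 with DESeq2 (5.22%). For IR+24h over both cell types, 1 was called (9.98% of all genes), against 2 with DESeq2 (15%). The count was 0 with 1 CPM in all libraries, a filter that COX7AL does not pass. For IR+48h over both cell types, 0 were called (4.37% of all genes), against 4 with DESeq2 (9.18%). The count was 3 with library size alone and 1 without a filter (1034 of all genes). The replicate block and the pairing within each time changed no other count by over 1.5 times. Calls over all genes also moved with the setting. A count given here without the share of all genes is therefore not read as a result about the members.

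Leaving out each library in turn gave 0 to 9 calls for POS against NEG without IR, 0 to 17 for the mean of 3 times, 0 to 5 for IR+24h in POS, 0 to 1 for IR+48h in POS, 1 to 5 for IR+24h over both cell types and 0 to 5 for IR+48h over both cell types. The lone library left in a group is then assumed to vary like the other groups. These counts, here and above, stand without the share of all genes called in the same fits. They are therefore not read as results about the members. No calls were made for the remaining 6 comparisons. Over all genes, calls for POS against NEG without IR numbered 284 and ranged from 20 with only the groups compared to 1249 with libraries paired within each time, and for the mean of 3 times they numbered 839 and ranged from 635 to 1985. Most duplicate copies had few counts, and what depth adds to their lack of calls was not tested.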
